A study of Homo sapiens with 12 samples.

Results

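The genes described here are 9 that carry out antigen presentation by MHC class I, namely HLA-B, HLA-C, HLA-E, HLA-F, B2M, TAP1, TAP2, TAPBP and NLRC5. They were taken by gene symbol from a table of 58233 genes. All 9 symbols were found once, and 8 of the 9 (all but HLA-F) were among the 7820 genes with at least 5 RPKM (read counts scaled by gene length and by the library total) in at least 3 libraries, which were tested. The cells were HL-60, an established human acute myeloid leukaemia line of promyelocytic type, labelled as wild type in genotype and grown in RPMI medium with serum. In total 12 poly(A) libraries were sequenced, 3 for each of 4 groups: untreated cells, cells given 100 nM ATRA (all-trans retinoic acid, the ligand of the retinoic acid receptors), cells given 500 nM palbociclib (an inhibitor of the cell cycle kinases CDK4 and CDK6), and cells given both at these doses. All treatments lasted 3 h. All libraries come from 1 cell line, and the labels do not say whether the 3 libraries of a group were separate cultures, so the p-values measure the spread between these libraries, which may be technical.

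MHC class I molecules show peptides from inside the cell to CD8 T cells. Each consists of a heavy chain (HLA-B and HLA-C are classical, highly polymorphic heavy chains, HLA-E and HLA-F are non-classical ones with little variation), the light chain B2M and a short peptide. The proteasome cuts the peptides, the transporter made of TAP1 and TAP2 carries them into the endoplasmic reticulum, and tapasin (TAPBP) holds the empty heavy chain beside the transporter while it is loaded. HLA-E mostly presents peptides from the leader sequences of other class I heavy chains and is read by the NKG2A receptor of natural killer cells. NLRC5 is the transactivator of class I promoters, where it acts with the RFX, CREB/ATF and NF-Y factors, and IRF1 and NF-kB act on nearby sites. In myeloid leukaemia, the class I level of the blasts bears on how T cells and natural killer cells see them.

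Some of the regulators described further on are transcription factors that act at promoters of class I genes. RefSeq (GRCh38.p14) promoter windows, from 250 bases before to 50 bases after the annotated start, were found for 7 of the 9 genes, TAP1 with a second window. The genes without one were HLA-E and NLRC5. The 250 bases before the start are shown for 5 genes, the 2 classical heavy chains whose levels moved together and 3 genes of the light chain and loading machinery with an interferon-type element. They are HLA-B at chr6:31357180-31357429 (minus strand), HLA-C at chr6:31272093-31272342 (minus strand), B2M at chr15:44711267-44711516 (plus strand), TAP1 at chr6:32853705-32853954 (minus strand) and TAPBP at chr6:33314079-33314328 (minus strand). Each is written from 5′ to 3′ on the strand of its gene, and capitals mark matches on either strand to the motifs named after the sequences.
HLA-B: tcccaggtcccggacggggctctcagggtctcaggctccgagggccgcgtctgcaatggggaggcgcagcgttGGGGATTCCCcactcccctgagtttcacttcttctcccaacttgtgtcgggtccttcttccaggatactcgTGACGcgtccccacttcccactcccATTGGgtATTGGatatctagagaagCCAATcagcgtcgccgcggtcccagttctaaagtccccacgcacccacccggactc
HLA-C: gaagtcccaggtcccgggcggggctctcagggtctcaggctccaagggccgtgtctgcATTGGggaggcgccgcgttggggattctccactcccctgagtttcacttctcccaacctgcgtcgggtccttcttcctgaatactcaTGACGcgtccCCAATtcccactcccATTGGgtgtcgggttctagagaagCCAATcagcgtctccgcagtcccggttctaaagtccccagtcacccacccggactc
B2M: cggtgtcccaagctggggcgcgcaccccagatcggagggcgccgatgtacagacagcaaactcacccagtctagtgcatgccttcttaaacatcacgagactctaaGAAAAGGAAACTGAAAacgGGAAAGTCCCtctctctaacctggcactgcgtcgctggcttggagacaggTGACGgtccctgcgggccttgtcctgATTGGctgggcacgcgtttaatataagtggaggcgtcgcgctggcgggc
TAP1: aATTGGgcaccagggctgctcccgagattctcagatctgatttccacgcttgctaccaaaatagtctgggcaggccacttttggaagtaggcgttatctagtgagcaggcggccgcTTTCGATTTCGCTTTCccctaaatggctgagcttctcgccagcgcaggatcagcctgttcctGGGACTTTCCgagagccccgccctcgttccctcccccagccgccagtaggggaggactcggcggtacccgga
TAPBP: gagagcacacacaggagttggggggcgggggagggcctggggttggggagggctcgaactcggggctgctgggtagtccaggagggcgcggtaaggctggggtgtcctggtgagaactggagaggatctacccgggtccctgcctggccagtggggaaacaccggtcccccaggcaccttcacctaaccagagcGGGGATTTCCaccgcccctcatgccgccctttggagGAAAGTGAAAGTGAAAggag

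The motifs searched on both strands of the 300-base windows were the core of the interferon-stimulated response element (GAAA, 2 bases of any kind, GAAA), the CCAAT box bound by NF-Y (CCAAT), the core of CREB/ATF sites such as the X2 box (TGACG), an NF-kB-like site (GGG, 2 bases of any kind, TT, 1 of any kind, CC) and the half-site of retinoic acid receptors (AGGTCA). The interferon core was found in 5 of the 7 genes (B2M, HLA-F, TAP1, TAP2 and TAPBP), against 3.57% of all 35116 windows. In B2M, TAP1 and TAPBP it occurred as 2 overlapping copies, with the first base at -144, -134 and -20 from the start. The windows of HLA-B and HLA-C held no match to these exact letters, and variants of the element were not searched. The second window of TAP1 held no match to any of the motifs. A CCAAT box was present in 5 of 7 genes (34.6% of all windows), 3 times in HLA-B and 4 times in HLA-C. The TGACG core was present in 4 of 7 (24.6% of all windows), and in HLA-B and HLA-C it lay at nearly the same place, -106 and -105. The NF-kB-like site was present in 4 of 7 (5.68% of all windows), including HLA-B and not HLA-C. The retinoic acid receptor half-site was in none of the 7, against 13.8% of all windows. These are letter matches in a fixed window, not measured binding.

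**Figure D1:**
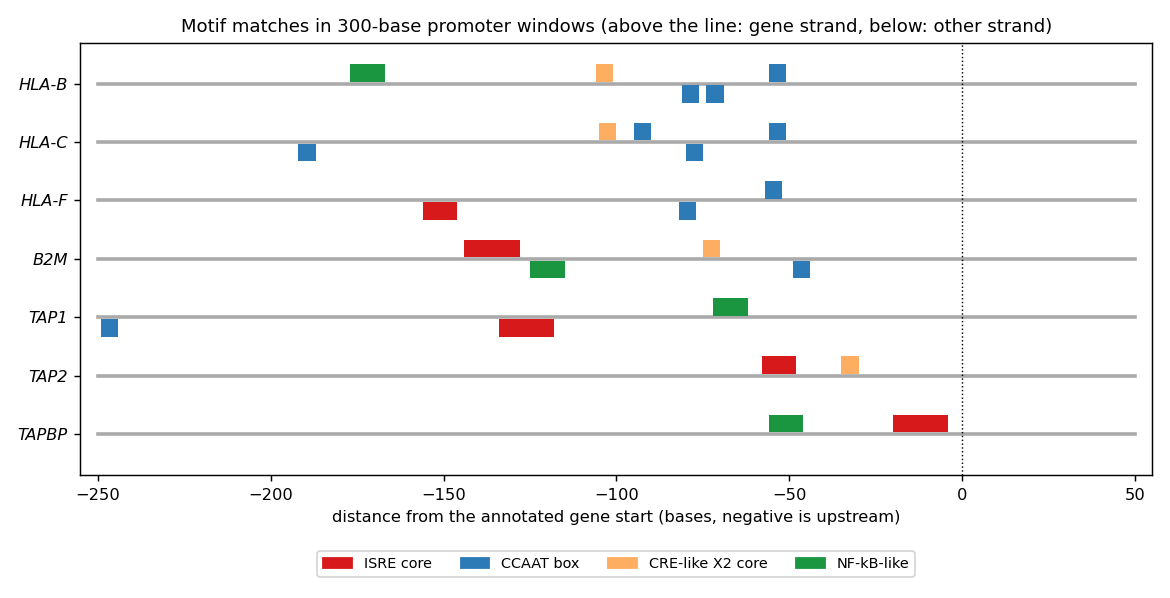
Motif matches in the promoter windows of 7 MHC class I presentation genes. The x axis is the distance from the annotated start in bases, each grey line is 1 gene, boxes above the line are matches on the strand of the gene and boxes below it are matches on the other strand. HLA-B and HLA-C have a CCAAT box at the same position and a TGACG core 1 base apart, while the exact letters of the interferon core are seen only in the other 5 genes.

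The libraries held most of the markers of a promyelocytic line. The 7 myeloid markers (MPO, ELANE, AZU1, PRTN3, CD33, CEBPE and SPI1) summed to 1560 to 1979 RPKM per library. Most of this sum was MPO (1077 to 1579 RPKM), while CD33 had 6 to 8 RPKM. ELANE was listed at 0 in untreated cells and at no more than 1 RPKM in any library. T cell, erythroid and fibroblast markers were at 0 in all libraries, CD79A was the only B cell marker above 0 (1 RPKM in libraries with ATRA), and of the natural killer cell markers only NKG7 was listed above 0 (5 to 10 RPKM). The RPKM values had been rounded to whole numbers, so a step of 1 RPKM is large for genes near 10 RPKM and small for HLA-B. The sum of all RPKM values was 363245 to 363796 in the untreated libraries. It was 386651 to 390247 in the 3 treated libraries numbered 1, 373530 to 378768 in those numbered 2 and 358455 to 370034 in those numbered 3, so the treated libraries with replicate number 1 stood apart in this respect. Between treated groups, libraries with the same number deviated together from their group means.

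HL-60 cells transcribed the class I genes at very different levels. HLA-B was the highest with a mean of 487 RPKM over all libraries (rank 79 of the 7820 tested genes), followed by B2M with 366 (rank 103), HLA-C with 274 (rank 161) and HLA-E with 97.0 (rank 494). The ranges of these 4 genes did not overlap over the 12 libraries. The loading genes and the transactivator lay far lower, TAP1 at 11.3 RPKM, NLRC5 at 10.3, TAPBP at 9.33 and TAP2 at 5.50, and HLA-F was lowest with 3.08. The ranges of TAP1 (10 to 12), NLRC5 (9 to 11) and TAPBP (8 to 11) overlapped, and those of TAP2 (4 to 7) and HLA-F (2 to 4) met at 4. The order of the heavy chains, HLA-B over HLA-C over HLA-E over HLA-F, was the same in each of the 12 libraries. HLA-B and HLA-C are polymorphic and share sequence with other genes. Of the 50-base stretches of their main transcripts, 20.6% and 6.76% also occur in transcripts of another gene. For HLA-B, 269 of these 306 stretches were shared with a gene that overlaps it on the other strand. The 20.6% is therefore not a measure of matches elsewhere in the genome. HLA-B shared 30 stretches with HLA-C, 15 with HLA-H and 13 with HLA-J. Reads with several matches were dropped in counting. How far this lowers their levels was not tested.

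**Figure D2:**
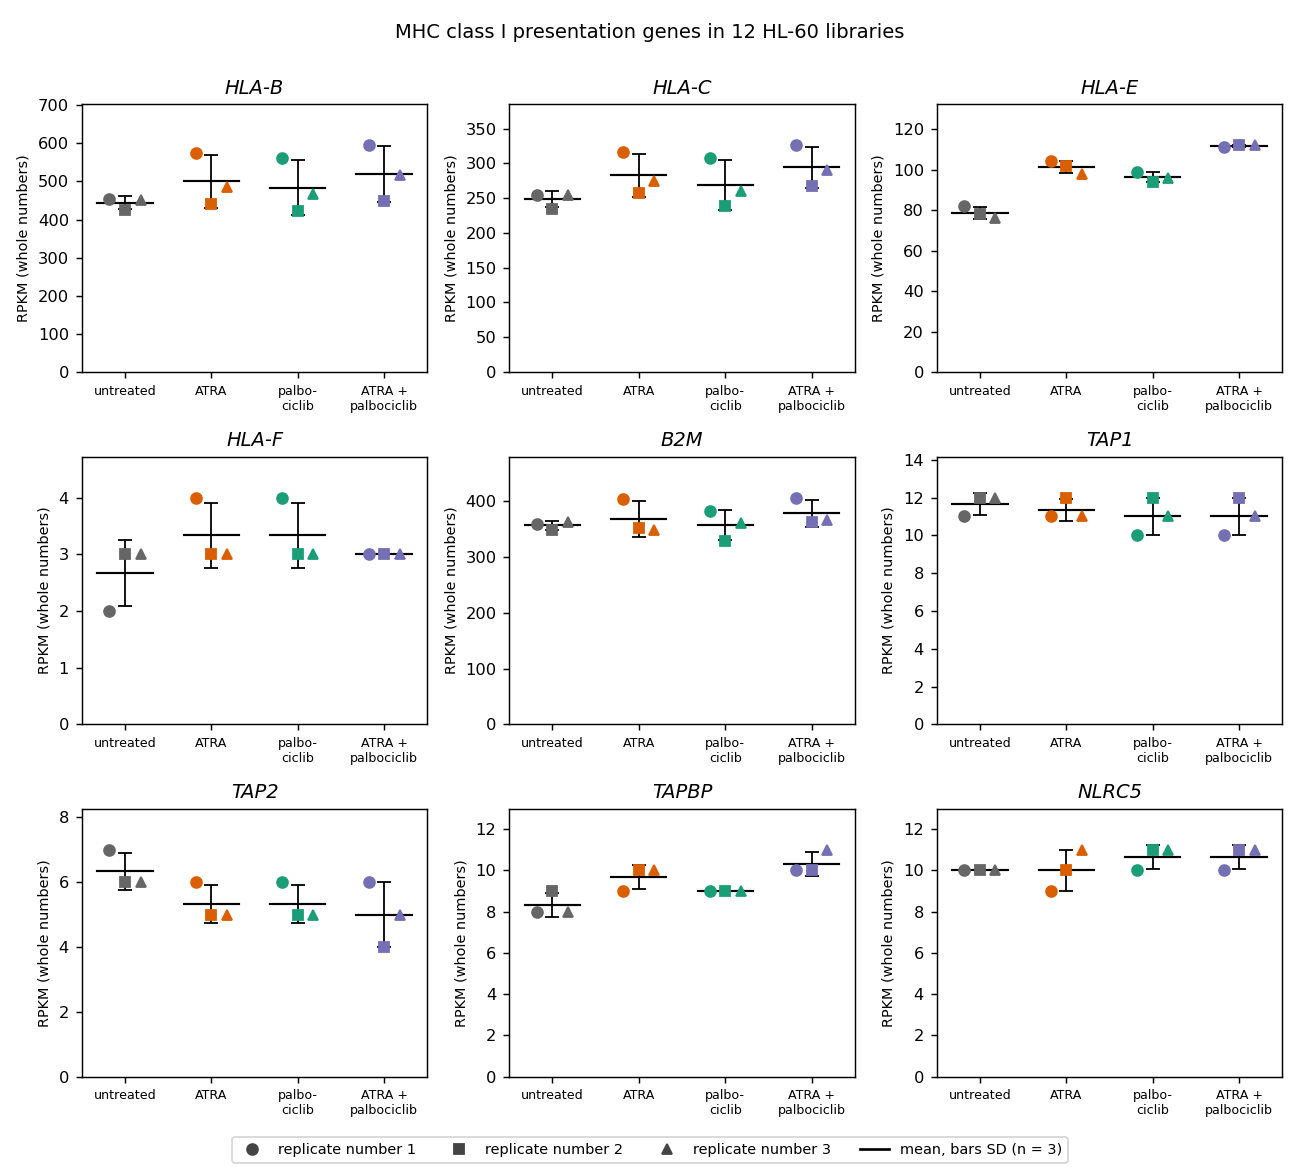
RPKM of the 9 MHC class I presentation genes in 12 HL-60 libraries. Each panel is 1 gene with its own y axis from 0 in RPKM, points are libraries (the symbol gives the replicate number), horizontal lines are group means and bars are SD with n = 3. In the HLA-E panel the 9 treated libraries lie at 94 to 112 RPKM, all above the untreated ones at 76 to 82, while in the HLA-B panel the treated libraries numbered 1 stand above the others.

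HLA-E, the ligand of NKG2A, was the only 1 of the 8 tested genes that was called under any treatment. Its transcript stood at 82, 78 and 76 RPKM in the untreated libraries, at 104, 102 and 98 with ATRA, at 99, 94 and 96 with palbociclib and at 111, 112 and 112 with the combination. The treated libraries did not overlap with the untreated ones under any treatment, and the combination lay above both single treatments. Among all tested genes, 12.4% had such a gap upwards with ATRA, 5.74% with palbociclib and 15.3% with the combination. For the combination, 0.87% had it against ATRA and 8.26% against palbociclib. In group means, HLA-E had 78.7 ± 3.06 RPKM (SD, n = 3) in untreated cells, 101.3 ± 3.06 with ATRA, 96.3 ± 2.52 with palbociclib and 111.7 ± 0.577 with the combination. In RNA from whole cultures, a change in the share of cells of a type and a change of RNA per cell cannot be told apart.

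HLA-E rose 1.29-fold with ATRA alone (log2 FC 0.37 ± 0.05 SE, 95% confidence interval 0.26 to 0.47, limma adjusted p = 0.000335), and it was called at an adjusted p under 0.001, as 1 of the 8 tested genes. In this comparison 4.72% of all tested genes were called. HLA-E and TAPBP were the 2 of the 8 with an unadjusted p under 0.05, a share to be read against 33.1% of all tested genes. Paired by number, the 3 ATRA libraries stood 26.8%, 30.8% and 28.9% above their untreated counterparts. The numbers paired untreated with treated libraries only weakly. The call was close to the threshold. The adjusted p was 0.00209 without untreated replicate 2, 0.00224 without untreated replicate 3, 0.00142 without ATRA replicate 1, 0.00263 without ATRA replicate 2, 0.00111 without ATRA replicate 3 and 0.00104 without replicate number 1 in every group, so HLA-E was not called in any of these, with a log2 FC of 0.34 to 0.40 over all fits that left out libraries.

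Palbociclib alone gave no call among the 8 genes by limma (0.499% of all tested genes were called, and 1 of the 8 had an unadjusted p under 0.05, against 17.4% of all tested genes). That gene was HLA-E, which was 1.22-fold of untreated (log2 FC 0.29, interval 0.19 to 0.40, adjusted p = 0.0065). It would be called at an adjusted p under 0.05, as would 4.07% of all tested genes. Its 3 libraries were all above the untreated ones, a pattern that 5.74% of all tested genes showed in this direction.

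With the combination HLA-E rose 1.42-fold (log2 FC 0.51, interval 0.40 to 0.61, adjusted p = 2.44e-05), again the only call among the 8 genes, with 8.04% of all tested genes called. At an unadjusted p under 0.05 there were 3 of the 8 (HLA-E and TAPBP higher, TAP2 lower), against 40.5% of all tested genes. Against ATRA alone, HLA-E was 1.10-fold (log2 FC 0.14, interval 0.04 to 0.24, unadjusted p = 0.0127 and adjusted p = 0.774 over all genes), and although the 3 libraries of the combination were all above those of ATRA, the difference did not pass the test. A gap in this direction was seen in 0.87% of all tested genes, and limma called 0 of the 7820 genes between the combination and ATRA, with 287 (3.67%) at an unadjusted p under 0.05. Against palbociclib alone HLA-E was 1.16-fold (log2 FC 0.21, adjusted p = 0.0121) and was not called either. In that comparison 3.11% of all genes and 0 of the 8 were called, while 2 of the 8 (HLA-E and TAPBP) had an unadjusted p under 0.05, against 23.8% of all genes. At an adjusted p under 0.05, 12.5% of all genes and HLA-E would be called. The same 2 genes had libraries of the combination that were all above those of palbociclib, as had 8.26% of all tested genes. The combined change was smaller than the sum of both single changes on the log2 scale by 0.15 (departure from additivity -0.15, interval -0.30 to -0.01, unadjusted p = 0.0435, adjusted p = 1). None of the 7820 genes was called by limma for such a departure (236, or 3.02%, had an unadjusted p under 0.05), and among the 8 HLA-E was the only 1 under that limit. The comparisons with untreated cells share the same 3 control libraries.

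**Figure D3:**
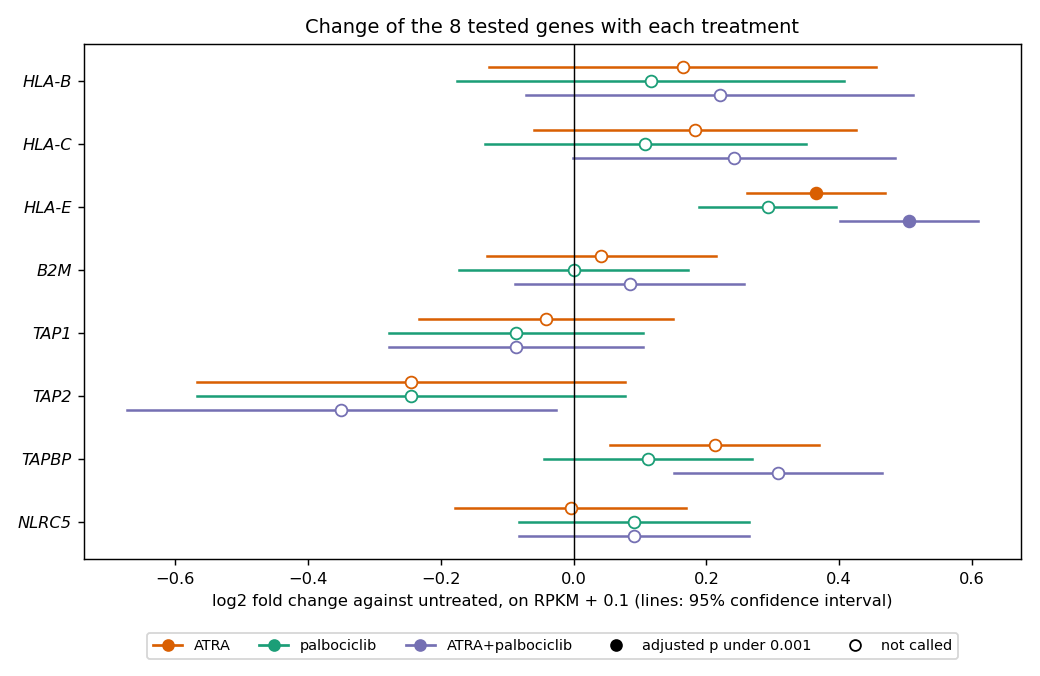
Log2 fold change of the 8 tested genes against untreated cells on the log2(RPKM + 0.1) scale. Points are estimates for ATRA, palbociclib and the combination (n = 3 libraries per group), lines are 95% confidence intervals and filled points passed an adjusted p under 0.001. HLA-E is filled for ATRA (0.37) and for the combination (0.51), and the other genes have open points.

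The classical heavy chains were more variable and were not called under any treatment. HLA-B had 455, 424 and 452 RPKM in untreated cells, 575, 440 and 485 with ATRA, 562, 423 and 467 with palbociclib and 595, 449 and 516 with the combination. The groups overlapped in each comparison, and the treated libraries numbered 1 were the highest in their groups. HLA-B differed from untreated by a log2 FC of 0.16 with ATRA (interval -0.13 to 0.46, adjusted p = 0.434), 0.12 with palbociclib (adjusted p = 0.733) and 0.22 with the combination (interval -0.07 to 0.51, adjusted p = 0.24). With libraries joined by number, those numbered 1 stood 26.4%, 23.5% and 30.8% above untreated under ATRA, palbociclib and the combination, while those numbered 2 stood 3.77% above, 0.236% below (a change of -0.236%) and 5.90% above. Without replicate number 1 in every group, the log2 FC of HLA-B was 0.08 with ATRA, 0.02 with palbociclib and 0.14 with the combination. The higher total of RPKM values in these treated libraries moved with this, and its part in the result was not tested.

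HLA-C showed the same pattern among libraries at a lower level. It was measured at 255, 235 and 255 RPKM in untreated cells, at 317, 257 and 274 with ATRA, at 308, 239 and 260 with palbociclib and at 326, 267 and 290 with the combination. The libraries with ATRA and those with the combination were all above the untreated ones, if only by 2 RPKM for the lowest ATRA library, while those with palbociclib overlapped with them. Such a gap upwards occurred in 12.4% of all tested genes for ATRA and in 15.3% for the combination. The log2 FC was 0.18 with ATRA (interval -0.06 to 0.42, adjusted p = 0.284), 0.11 with palbociclib (adjusted p = 0.694) and 0.24 with the combination (interval -0.001 to 0.48, adjusted p = 0.125). Leaving out replicate 1 of the treated group gave 0.10 with ATRA, 0.01 with palbociclib and 0.17 with the combination, and leaving out replicate 2 gave 0.25, 0.19 and 0.31. Between treated groups, where the numbers pair the libraries, HLA-C with the combination was above palbociclib by 18, 28 and 30 RPKM and above ATRA by 9, 10 and 16 RPKM. HLA-B was above palbociclib by 33, 26 and 49 RPKM and above ATRA by 20, 9 and 31 RPKM, so that all 3 pairs pointed the same way for both genes. The 2 genes moved together across libraries, so they do not count as separate observations. How many of all tested genes had such pairs was not counted. With the number as a block over the 9 treated libraries, an alternative added after seeing the data, limma gave an adjusted p of 0.0083 for HLA-B and 0.00602 for HLA-C against palbociclib (0.745 and 0.561 without the block) and of 0.197 and 0.243 against ATRA, with no call. Over the 12 libraries, log2 values of HLA-C and HLA-B had a Pearson correlation of 0.98, and 0.99 after the group means were taken out. HLA-E and HLA-B, in contrast, had 0.54 and 0.39. These correlations are descriptions over libraries that share their scaling.

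B2M, the light chain of all these molecules, lay between 329 and 407 RPKM. It had 360, 348 and 363 RPKM in untreated cells, 405, 352 and 348 with ATRA, 383, 329 and 361 with palbociclib and 407, 363 and 367 with the combination. Again the treated libraries numbered 1 were the highest of their groups, and the groups overlapped or met. The log2 FC was 0.04 with ATRA (interval -0.13 to 0.21, adjusted p = 0.746), 0.0001 with palbociclib (interval -0.17 to 0.17) and 0.08 with the combination (interval -0.09 to 0.26, adjusted p = 0.456), so changes beyond these intervals were not seen at this precision.

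Ratios between genes of the same library do not depend on its scaling. For every 100 RPKM of B2M there were 22.8, 22.4 and 20.9 RPKM of HLA-E in the untreated libraries, 25.7, 29.0 and 28.2 with ATRA, 25.8, 28.6 and 26.6 with palbociclib and 27.3, 30.9 and 30.5 with the combination. In this ratio all 9 treated libraries were above the 3 untreated ones, and the treated libraries numbered 1 were not the highest but the lowest of their groups. Relative to HLA-B, the untreated libraries (16.8 to 18.4 RPKM of HLA-E for every 100 RPKM of HLA-B) overlapped with those under ATRA (18.1 to 23.2) and palbociclib (17.6 to 22.2), while those of the combination (18.7 to 24.9) lay just above them. The sum of the 4 heavy chains was 2.13 to 2.21 times the B2M value in untreated cells and 2.28 to 2.54 times in the treated libraries. These ratios were chosen after the values were seen and were not tested.

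**Figure D4:**
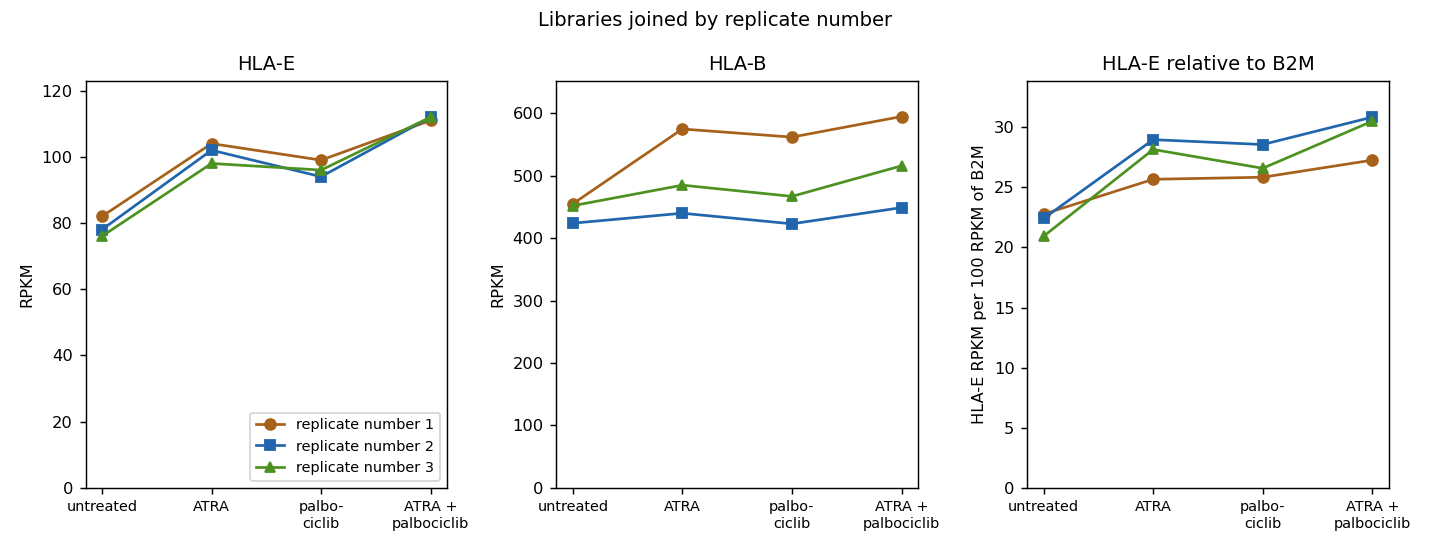
HLA-E, HLA-B and the ratio of HLA-E to B2M across the 4 groups, with libraries of the same replicate number joined by a line. The y axes are RPKM, RPKM, and RPKM of HLA-E for every 100 RPKM of B2M, each from 0, with n = 3 libraries per group. The lines follow the numbers of the labels, which paired untreated with treated libraries only weakly. The 3 lines of HLA-E run close together, while the HLA-B line of number 1 leaves the other 2 in the treated groups.

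The estimates of the peptide loading genes differed in sign, and none was called. Tapasin (TAPBP) was listed at 8, 9 and 8 RPKM in untreated cells, 9, 10 and 10 with ATRA, 9, 9 and 9 with palbociclib and 10, 10 and 11 with the combination. The combination libraries were all above the untreated and the palbociclib ones, by at least 1 rounding step. The same held for 15.3% and 8.26% of all tested genes. The log2 FC of TAPBP was 0.21 with ATRA (interval 0.05 to 0.37, adjusted p = 0.0587), 0.11 with palbociclib (adjusted p = 0.473) and 0.31 with the combination (interval 0.15 to 0.47, adjusted p = 0.00802), so no call was made. At an adjusted p under 0.05, which 30.4% of all tested genes reached with the combination, TAPBP would be called there.

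The transporter subunits had estimates on the other side. TAP2 had 7, 6 and 6 RPKM in untreated cells, 6, 5 and 5 with ATRA, 6, 5 and 5 with palbociclib and 6, 4 and 5 with the combination. The groups overlapped at 6 RPKM, and the log2 FC was -0.25 with ATRA (adjusted p = 0.279), -0.25 with palbociclib (adjusted p = 0.441) and -0.35 with the combination (interval -0.67 to -0.03, adjusted p = 0.0971). TAP1 remained between 10 and 12 RPKM in all 12 libraries, with 11, 12 and 12 in untreated cells, 11, 12 and 11 with ATRA, and the same 10, 12 and 11 with palbociclib and with the combination. Its log2 FC was -0.04, -0.09 and -0.09 with ATRA, palbociclib and the combination, and the interval for the combination ran from -0.28 to 0.10. With values of 4 to 12 RPKM and a rounding step of 1, small changes of these genes could not be resolved.

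NLRC5, the transactivator, lay between 9 and 11 RPKM. It stood at 10, 10 and 10 RPKM in untreated cells, at 9, 10 and 11 with ATRA, and at 10, 11 and 11 both with palbociclib and with the combination. All groups overlapped, and the log2 FC was -0.005 with ATRA (interval -0.18 to 0.17), 0.09 with palbociclib and 0.09 with the combination (interval -0.08 to 0.26, adjusted p = 0.423). HLA-F, the other non-classical heavy chain, had 2, 3 and 3 RPKM in untreated cells, 4, 3 and 3 with ATRA, 4, 3 and 3 with palbociclib and 3, 3 and 3 with the combination. It fell below the filter and was not tested.

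Taking the 8 tested genes as a list, the median log2 FC was 0.10 with ATRA, 0.10 with palbociclib and 0.16 with the combination, where the medians of all 7820 tested genes were -0.01, 0 and -0.01. Positive estimates were found for 5 of 8 genes with ATRA and for 6 of 8 with palbociclib and with the combination, against 44.6%, 48% and 46% of all tested genes. The genes share libraries and are not independent, so these counts describe the list only.

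The genes lie mostly within the MHC region of chromosome 6 (GRCh38, GENCODE v44), all as protein-coding genes. From the telomeric side these are HLA-F (chr6:29722775-29738528, plus strand), HLA-E (chr6:30489509-30494194, plus), HLA-C (chr6:31268749-31272130, minus), HLA-B (chr6:31353872-31367067, minus), TAP2 (chr6:32821833-32838739, minus), TAP1 (chr6:32845209-32853816, minus) and TAPBP (chr6:33299694-33314284, minus). B2M lies at chr15:44711358-44718851 (plus) and NLRC5 at chr16:56989485-57083531 (plus). The exons of HLA-E, HLA-C, B2M and NLRC5 are not overlapped by exons of another gene. Those of HLA-B overlap with other genes over 47.3% of their bases, those of HLA-F over 28.0%, TAPBP over 21.0%, TAP2 over 19.5% and TAP1 over 14.2%, where reads can be dropped as ambiguous or, without strand, be counted for either gene. HLA-E, the gene that was called, shared 6.16% of its 50-base stretches with other transcripts.

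Upstream of loading, genes that supply and fold peptides and heavy chains were not called. The list held 15 genes, of which 12 were tested: the constitutive and immunoproteasome subunits, the proteasome activator, and chaperones of the endoplasmic reticulum. By limma, 0 of 12 were called in each of the 6 comparisons, while 2 had an unadjusted p under 0.05 with ATRA, 1 with palbociclib and 5 with the combination, all with higher values (33.1%, 17.4% and 40.5% of all tested genes). The highest in level were CALR (calreticulin, 457 to 616 RPKM, log2 FC -0.07 with the combination, adjusted p = 0.696) and HSPA5 (BiP, 267 to 363 RPKM, log2 FC 0.23, adjusted p = 0.0789). Genes of the turnover and surface level of class I (6 of 12 tested, led by TMED10 at 34 to 39 RPKM and SEL1L at 13 to 22 RPKM) had no call either, with 3 at an unadjusted p under 0.05 with ATRA, 0 with palbociclib and 3 with the combination, to be read against the same shares.

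Among other class I and class I-like genes, 3 of 16 passed the filter, of which CD1D did so only through the libraries with ATRA. CD1D is a class I-like heavy chain that presents lipids to natural killer T cells and also pairs with B2M. It was listed at 2, 2 and 2 RPKM in untreated cells, at 38, 49 and 47 with ATRA, at 3, 2 and 2 with palbociclib and at 44, 54 and 56 with the combination. Every library with ATRA was far above every library without it. On the log2(RPKM + 0.1) scale the level of CD1D corresponded to 21.2-fold of untreated with ATRA, 24.4-fold with the combination and 1.14-fold with palbociclib. Since a difference was needed for it to pass the filter, these values are a description and its test is not given. The pseudogene HLA-H, at 22 to 31 RPKM and similar in sequence to the classical heavy chains, was not called (log2 FC 0.28 with the combination, adjusted p = 0.0503). The third tested gene, HLA-G, is a non-classical heavy chain at 16 to 23 RPKM, named here after its values were seen. Its log2 FC was 0.21 with ATRA (adjusted p = 0.121) and 0.33 with the combination, without a call. With the replicate number as a block, limma called HLA-G for the combination (adjusted p = 0.000298), as it did 15.4% of all tested genes. Higher values with the combination were thus not seen in HLA-E alone. HLA-E shared 67 of its 50-base stretches with HLA-G, and how far this affects the HLA-G value was not tested.

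Of 26 regulators of class I transcription, 23 passed the filter, and IRF1 and IFNAR2 did so only through the libraries with ATRA. Leaving these 2 aside, limma called none with ATRA (4.72% of all tested genes), EZH2 with palbociclib (0.499%) and IFNGR1 and EZH2 with the combination (8.04%). With ATRA 13 of the 23 had an unadjusted p under 0.05, 6 higher and 7 lower (33.1% of all tested genes). This count includes IRF1 and IFNAR2, which needed a difference to pass the filter, so it is a description only. IRF1, an interferon regulatory factor that binds the response element of class I promoters, had 2, 2 and 1 RPKM in untreated cells, 7, 7 and 6 with ATRA, 2, 2 and 2 with palbociclib and 7, 8 and 7 with the combination. The libraries with ATRA did not overlap with those without it. On the same scale IRF1 was at 3.99-fold of untreated with ATRA, 1.24-fold with palbociclib and 4.38-fold with the combination. IFNAR2, a subunit of the type I interferon receptor, was at 4 RPKM in each library without ATRA, at 7, 8 and 8 with ATRA and at 6, 8 and 8 with the combination. It was at 1.89-fold of untreated with ATRA and 1.80-fold with the combination. As for CD1D, these values of IRF1 and IFNAR2 are descriptions, and no test of them is given.

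IFNGR1, a subunit of the interferon gamma receptor, had 17, 18 and 18 RPKM in untreated cells, 24, 25 and 21 with ATRA, 19, 20 and 19 with palbociclib and 25, 25 and 23 with the combination. All treated libraries were above the untreated ones. Such a gap occurred in 12.4%, 5.74% and 15.3% of all tested genes with ATRA, palbociclib and the combination. By limma, IFNGR1 was called for the combination (log2 FC 0.46, adjusted p = 0.000654) and not for ATRA (log2 FC 0.40, adjusted p = 0.00251). EZH2, the methyltransferase of the Polycomb complex PRC2 that can silence class I genes, showed the opposite direction. It had 24, 23 and 24 RPKM in untreated cells, 20, 19 and 19 with ATRA, 17, 17 and 16 with palbociclib and 17, 16 and 16 with the combination. EZH2 fell by 0.50 on the log2 scale with palbociclib (adjusted p = 0.000452) and by 0.53 with the combination (adjusted p = 3.27e-05), and was not called with ATRA (log2 FC -0.29, adjusted p = 0.00264). When single libraries were left out, the call of EZH2 with the combination was kept in all 12 fits. With palbociclib it was lost in 9 of 12 (adjusted p = 0.00115 to 0.00374), all but those without ATRA replicate 1 or without replicate 1 or 3 of the combination. The call of IFNGR1 was lost in 10 of 12 (adjusted p = 0.00108 to 0.00414), all but those without replicate 2 or 3 of ATRA.

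**Figure D5:**
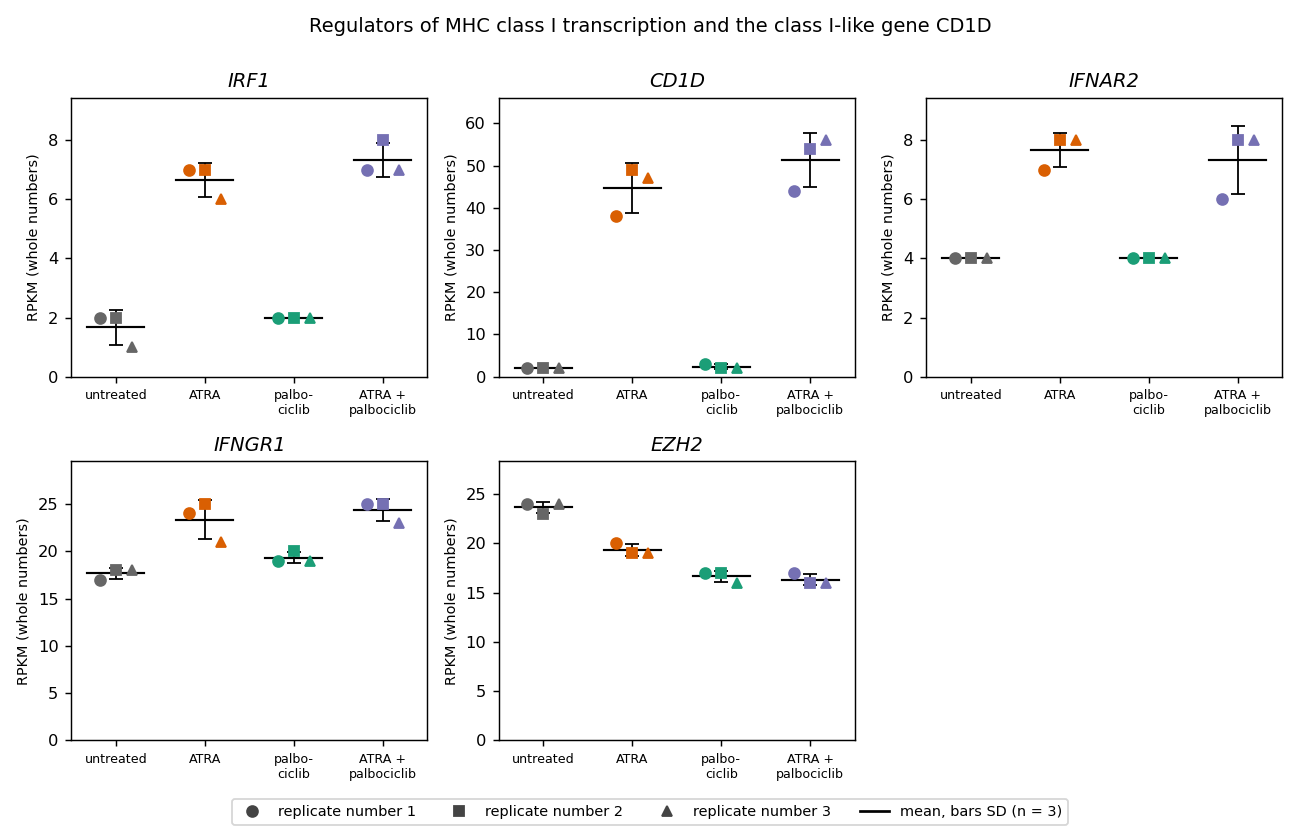
RPKM of IRF1, CD1D, IFNAR2, IFNGR1 and EZH2 in 12 HL-60 libraries. Each panel is 1 gene with its own y axis from 0 in RPKM, points are libraries with symbols for the replicate number, lines are means and bars are SD with n = 3. IRF1, CD1D and IFNAR2 are high in the 6 libraries with ATRA and low in the 6 without, whereas EZH2 is lowest in the 6 libraries with palbociclib, at 16 to 17 RPKM.

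The regulators with the highest levels were IRF8 (43 to 67 RPKM, log2 FC -0.40 with ATRA, adjusted p = 0.00976) and RFX5, a part of the RFX complex at class I promoters (25 to 34 RPKM, log2 FC 0.32 with the combination, adjusted p = 0.0182), and neither was called. Most interferon-stimulated genes lay below the filter in these cells. Of 28 such genes 2 were tested, BST2 (35 to 45 RPKM) and IFITM2 (12 to 16 RPKM), and limma called 0 of them in each comparison, with 1 at an unadjusted p under 0.05 with ATRA, 1 with palbociclib and 2 with the combination (33.1%, 17.4% and 40.5% of all tested genes). Most class II genes also lay below the filter. Of 14 genes 2 were tested, the invariant chain CD74 (52 to 80 RPKM) and the protease CTSS (30 to 37 RPKM), and neither was called or had an unadjusted p under 0.05 in any comparison. CIITA, the class II counterpart of NLRC5, and HLA-DRA were listed at 0 in all libraries.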

How the data were processed

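Poly(A) RNA of 12 HL-60 samples was sequenced, 3 libraries per group. Reads were aligned by the authors (HISAT2, hg38), and gene counts came from htseq-count with defaults, so ambiguous and multiply mapped reads were dropped. The authors tested these counts with voom. Versions are not given in the sources used here. The deposited values are RPKM that the authors rounded to whole numbers, treated here as a score with a step of 1. Read depth per library cannot be taken from them, so no counting error is given. Linear models with 1 mean per group over all 12 libraries were fitted to log2(RPKM + 0.1) with limma 3.58.1 (R 4.3.3; trended eBayes) for 7820 genes with at least 5 RPKM in at least 3 libraries. P-values were adjusted over all tested genes (Benjamini-Hochberg) in each of 6 comparisons, and genes were called at an adjusted p under 0.001. Adding 0.1 shrinks the fold changes of low genes, while the rounding can move them either way. The script was tested on simulated data. No 2 libraries were duplicates (3.87% to 21.1% of 2660 genes identical per pair). The genes, lists, filter and threshold were chosen with earlier results of these data known. All genes of interest were named, and from each list those called and the 2 highest in level. Same-number libraries correlated in their deviations by 0.438 to 0.908 between treated groups and by 0.0453 to 0.367 between untreated and treated groups. Libraries of different numbers reached at most 0.243 and 0.0568. Within each pair of groups, every same-number correlation was above those of different numbers. Between untreated and treated groups the pairing was weak, and not every pair was above 0.1. Pairing by number was therefore relied on between treated libraries alone. Tables and plots were made with Python 3.11.15.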

Additional observations from a re-analysis of the deposited data

How the results depend on the processing

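HLA-E kept its direction in each alternative run, with a log2 FC of 0.34 to 0.40 for ATRA, 0.27 to 0.37 for palbociclib and 0.47 to 0.58 for the combination. For ATRA the number of called genes among the 8 fell from 1 to 0 with median centring (HLA-E log2 FC 0.40, adjusted p = 0.00422), with quantile normalization (0.36, adjusted p = 0.00113) and with only the libraries compared (0.37, adjusted p = 0.00766), and lay between 0 and 1 when libraries were left out. For the combination it fell from 1 to 0 with only the libraries compared (HLA-E adjusted p = 0.00204) and was 2 (HLA-E and TAPBP) at an adjusted p under 0.05. At that threshold it was 1 (HLA-E) instead of 0 for palbociclib and for the combination against palbociclib. The cause of these changes was not tested. Of 48 values (8 genes, 6 comparisons), 5 changed their call in at least 1 alternative and 15 others changed sign without being called. With the replicate number as a block no call among the 8 genes changed (HLA-E adjusted p = 0.0001 for ATRA, 0.00156 for palbociclib and 1.24e-05 for the combination), while calls over all genes rose to 9.23%, 1.06%, 15.4% and 6.15% for ATRA, palbociclib, the combination and the combination against palbociclib. Among the other lists and myeloid markers the block added calls for IFNGR1, EZH2, IFNGR2, SYVN1, SPI1 and AZU1 with ATRA, for IFNGR2, SYVN1, STAT2, HLA-G and AZU1 with the combination, and for IFNGR2 for the combination against palbociclib. In a block fit of the 9 treated libraries, chosen after seeing the data, HLA-E between the combination and ATRA had an adjusted p of 0.0769. In the other lists EZH2 lost its calls with median centring (up to 0.026 for palbociclib) and with only the libraries compared, and IFNGR1 lost its call in 14 alternatives, those that left out libraries included. The rounding to whole RPKM limits what can be seen for genes near 10 RPKM.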

Other observations

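Genes with the pattern most like the mean of the 8 tested genes were looked for among 2656 genes with at least 20 RPKM on average. Likeness was the Pearson correlation of log2(RPKM + 0.1) over the 12 libraries, given as a description. Of the 5 closest genes, 4 are named here: PFDN5, a prefoldin subunit (0.96), RCC1L (0.95), CIB1, a calcium- and integrin-binding protein (0.93), and ORM1, an acute phase protein whose near-identical neighbour ORM2 makes its count uncertain (0.93). The most opposite genes were the importin IPO7 (-0.96) and the integrin subunit ITGB1 (-0.96). After centring each library on its median, the correlation of PFDN5 was 0.96 and its rank 26, and ORM1 ranked 195, so the order of the closest genes moved with the scaling of the libraries.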
